A study of Vitis vinifera with 9 samples.

Results

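Stilbene synthase was followed in detached leaves of the grapevine Vitis vinifera 'Hongbaladuo' through 6 probe sets of the Affymetrix Grape Genome Array. A probe set is a group of short probes that together give 1 signal for a target transcript. The 6 were chosen by name and suffix. The gene title or the target of each names stilbene synthase in the deposited tables. All end in the plain suffix _at, which Affymetrix gives to probe sets meant for 1 transcript. They are 6 of 16436 probe sets tested. A further 6 probe sets of the family, with the suffixes _s_at and _x_at for shared or similar targets, serve for comparison. The choice was not free of the values, since the deposited tables list 10471 probe sets with brighter signals than the 5965 left out (median of 341 against 12.0). A stilbene synthase probe set that stayed dim on all arrays could be missing from the 6. Leaves 30 days old were detached, kept in the dark at 25 °C and then given UV-C at 6 W per square metre for 10 min. The 3 groups were control leaves taken at 0 h, before UV-C, UV-C leaves taken at 6 h and UV-C leaves taken at 12 h, with 3 replicates of 6 leaves and 1 array per replicate. No unexposed leaves were taken at 6 h or 12 h. UV-C and the time since detachment thus cannot be told apart in any comparison with the control or between 12 h and 6 h.

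Stilbene synthase joins p-coumaroyl-CoA, a product of the phenylpropanoid pathway, with malonyl-CoA to make resveratrol, the parent of the grapevine stilbenes. Stilbenes act as phytoalexins, antimicrobial compounds that grapevine leaves make after fungal attack, wounding or ultraviolet light. Chalcone synthase, a close relative of stilbene synthase, uses the same substrates to start the flavonoids. Grapevine carries a large family of stilbene synthase genes in tandem arrays, and many of the copies are nearly identical in sequence.

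In the deposited annotation 3 of the 6 probe sets matched many transcripts. Of these, 1612804_at was assigned to more than 1 gene, and the transcripts matched by 1609697_at also came from more than 1 gene. The probes of 1610850_at, aimed at a stilbene synthase mRNA of cv. Optima, matched 15 transcripts, all with 16 probes, and the gene given was LOC100253166. The probes of 1612804_at, aimed at another V. vinifera stilbene synthase mRNA, also matched 15 transcripts and were assigned to 3 genes (LOC100246143, LOC100254891 and LOC100259169). Those of 1609697_at, titled stilbene synthase 4 (LOC100241891) and aimed at the 3′ end of a transcript from a hybrid cultivar, matched 14 transcripts with 9 to 14 probes each. Beside LOC100241891 (14 probes), transcripts of LOC100241036 (11 probes), LOC100242554 (10 probes) and LOC100250643 (10 probes) were among them. The other members had little or no match: 1614621_at was assigned to no transcript although it has the same target mRNA as 1610850_at, 1616575_at was aimed at the stilbene synthase 2 gene of Vitis sp. cv. Norton and matched 1 transcript with 9 probes, and 1606750_at was aimed at a truncated stilbene synthase pseudogene of the same cultivar and matched none. Signals of near-identical copies can mix in such probe sets, and the genes read are uncertain. Of the 10 genes assigned to the whole family, 4 were matched in the RefSeq annotation of V. vinifera (assembly ASM3070453v1), and these 4 all lay on chromosome 16 within a run of 15 protein-coding genes. Among the members only the gene of 1610850_at was matched.

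All 6 probe sets were low on the control arrays and much higher on every array at 6 h and 12 h. The signal is the value of RMA, which corrects the background and normalizes the arrays, on a linear scale, and it does not rank genes by transcript level, since probes differ in how well they bind. Calls needed a limma p adjusted over all probe sets under 0.05 together with a change of at least 2-fold. All 6 were called higher at 6 h, where 11.9% of all probe sets tested were called higher, and all 6 at 12 h, where 14.7% were. Among the 10471 probe sets that the deposited tables list, from which the 6 come, the shares were 17.8% and 21.6%. The arrays of the 6 did not overlap with the control arrays at either time, against 26.9% of all probe sets that lay wholly above the control at 6 h and 33.5% at 12 h. The control means of the 6 ran only from 11.2 to 45.4, and how the deposited tables chose their probe sets was not tested. The 6 may be listed because their UV-C arrays were bright, so these counts describe the 6 and do not test them. In whole leaves, more cells with the transcript and more transcript per cell cannot be told apart.

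1610850_at had a signal of 28.1, 34.4 and 34.3 on the control arrays, of 15192, 16987 and 17671 at 6 h and of 23269, 22198 and 22799 at 12 h. Both groups of UV-C arrays lay far above the control arrays, and the lowest array at 6 h was 442 times the highest control array. The log2 change against the control was 9.01 ± 0.11 (standard error of limma, n = 3 arrays per group) at 6 h, a 516-fold change with a 95% interval of 435- to 612-fold, and 9.47 ± 0.11 at 12 h, a 708-fold change with an interval of 596- to 840-fold (adjusted p = 5e-11 and 3.14e-11 from limma). Among the changes of all 16436 probe sets, ordered from the highest, it stood at place 2 at both times.

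1609697_at, titled stilbene synthase 4, had a signal of 48.0, 56.7 and 31.5 on the control arrays, of 13587, 12929 and 14132 at 6 h and of 9024, 8928 and 8534 at 12 h. Its 3 arrays at 12 h all lay below its 3 arrays at 6 h, and all 6 lay far above the control. It rose 307-fold at 6 h (log2 8.26 ± 0.18, 95% interval 230- to 409-fold) and was 200.1-fold above the control at 12 h (log2 7.64 ± 0.18, 150.1- to 267-fold), with adjusted p = 1.87e-09 and 1.89e-09 from limma.

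1612804_at, named resveratrol synthase in the study, had a signal of 11.04, 12.82 and 9.68 on the control arrays, of 2509, 2604 and 2482 at 6 h and of 2474, 2465 and 2985 at 12 h. The arrays at 6 h and 12 h overlapped, and 1 array, 12 h replicate 3, stood above the other UV-C arrays. The change was 228-fold at 6 h (log2 7.83 ± 0.13, 188- to 277-fold) and 237-fold at 12 h (log2 7.89 ± 0.13, 195- to 288-fold), with adjusted p = 3.48e-10 and 2.2e-10 from limma.

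**Figure D1:**
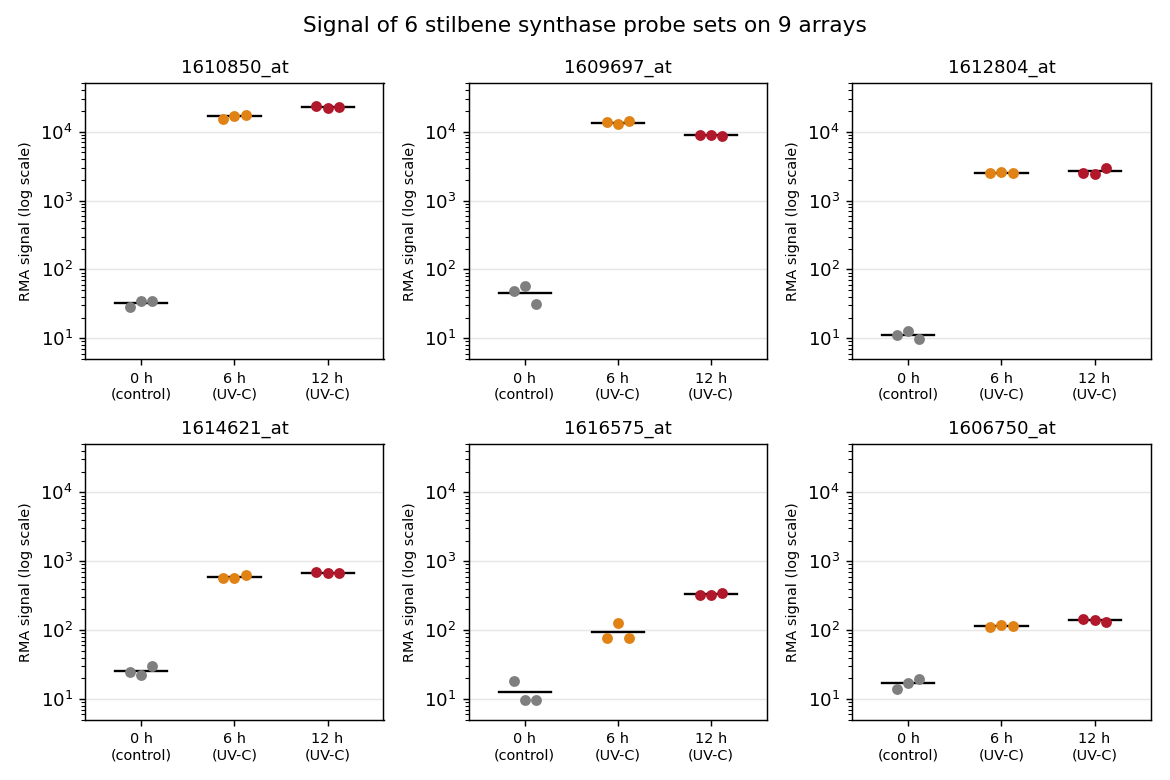
RMA signal (log axis) of the 6 stilbene synthase probe sets on the 9 arrays, with 1 point per array and a bar at the mean of each group of 3 arrays (0 h control, 6 h UV-C, 12 h UV-C). In each panel the 6 UV-C arrays lie above the 3 control arrays, and the height of the step runs from 6.84-fold (1606750_at, 6 h) to 708-fold (1610850_at, 12 h).

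The other 3 members rose less. 1614621_at, which shares its target mRNA with 1610850_at, had a signal of 24.9, 22.6 and 30.2 on the control arrays, of 575, 580 and 639 at 6 h and of 694, 665 and 673 at 12 h. It rose 23.3-fold at 6 h (log2 4.54 ± 0.12, 19.4- to 27.9-fold) and 26.4-fold at 12 h (log2 4.72 ± 0.12, 22.0- to 31.6-fold), with adjusted p = 3.78e-09 and 2.22e-09 from limma. The arrays at 12 h lay just above those at 6 h, by less than the spread among the control arrays on the log2 scale.

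1616575_at, the probe set of the Norton stilbene synthase 2 gene, had a signal of 18.3, 9.66 and 9.82 on the control arrays, of 77.0, 127.6 and 75.9 at 6 h and of 320.0, 326.6 and 345.4 at 12 h. Control replicate 1 and 6 h replicate 2 each stood above the other arrays of their group, and the 3 groups did not overlap. The change was 7.55-fold at 6 h (log2 2.92 ± 0.27, 4.98- to 11.4-fold) and 27.5-fold at 12 h (log2 4.78 ± 0.27, 18.1- to 41.7-fold), with adjusted p = 9.26e-06 and 2.05e-07 from limma. At 6 h this probe set had reached 61.0% of its log2 change at 12 h, against 90.9% to 108.1% for the other 5 members, a description that rests on the same control arrays at both times.

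1606750_at, the probe set of the Norton pseudogene, had a signal of 14.1, 17.2 and 19.4 on the control arrays, of 110.5, 118.9 and 114.0 at 6 h and of 144.5, 141.5 and 130.2 at 12 h. All 3 arrays at 12 h lay above those at 6 h. It rose 6.84-fold at 6 h (log2 2.77 ± 0.12, 5.65- to 8.28-fold) and 8.28-fold at 12 h (log2 3.05 ± 0.12, 6.84- to 10.0-fold), with adjusted p = 7.92e-08 and 2.78e-08 from limma. A pseudogene is a gene copy that no longer codes for a working protein, and the signal may include transcripts of other copies, which was not tested.

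The size of the change differed with the annotation of the probes. The 3 members whose probes matched 14 or 15 transcripts rose 228- to 516-fold at 6 h and 200.1- to 708-fold at 12 h. The 3 with at most 1 matched transcript rose 6.84- to 23.3-fold and 8.28- to 27.5-fold. This split was seen after the values and is given without a test. The 6 shared probe sets of the family, all of which carry gene assignments, rose 182- to 539-fold at 6 h and 154- to 754-fold at 12 h and were all called at both times, so 1610850_at, 1609697_at and 1612804_at lay inside their range at both times while 1614621_at, 1616575_at and 1606750_at lay below all of it. The probe set 1609696_x_at, with the same target and gene as 1610850_at, rose 539-fold at 6 h (signals of 14250, 16096 and 16326, against 28.5, 28.6 and 29.3 on the control arrays), close to the 516-fold of 1610850_at. 1610070_at, which is called stilbene synthase in the study but has neither a title nor a target of that name in the deposited tables and is not among the 6, rose 11.9-fold at 6 h and 17.8-fold at 12 h. The control signals set a limit here: the lower quartile of all probe sets lay between 16.2 and 17.1 on the 9 arrays, the means of 1612804_at (11.2 ± 1.57, SD) and 1616575_at (12.6 ± 4.93) lay below it and that of 1606750_at (16.9 ± 2.67) within it. No detection call was used, and the fold changes of these 3 were not set against a detection limit.

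**Figure D2:**
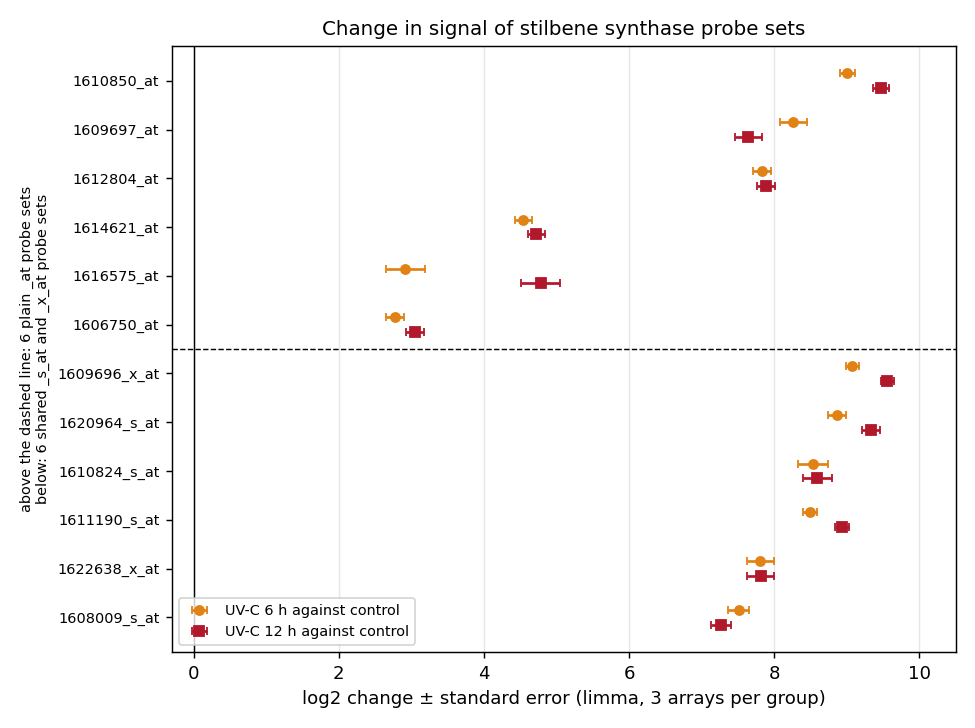
Log2 change in signal (x axis, with the standard error of limma, 3 arrays per group) of the 6 plain _at probe sets above the dashed line and the 6 shared probe sets of the family below it. Circles give UV-C 6 h and squares UV-C 12 h against the control. 1610850_at, 1609697_at and 1612804_at lie among the shared probe sets, while 1614621_at, 1616575_at and 1606750_at lie between 2.77 and 4.78.

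The signals of the members did not move in parallel. For each of the 15 pairs of members, the log2 difference within an array was compared across the 3 times by an exact permutation test over the 9 arrays, whose smallest possible p is 0.00357. All 15 pairs differed between times after adjustment over the 15 (the highest adjusted p was 0.0321, 1614621_at with 1616575_at). The pair with 1 target mRNA, 1610850_at and 1614621_at, differed too. The first exceeded the second by 0.32 ± 0.25 (SD, n = 3 arrays) on the log2 scale on the control arrays, by 4.79 ± 0.07 at 6 h and by 5.07 ± 0.01 at 12 h (exact permutation p = 0.00357, adjusted p = 0.00595). The fold change of 1610850_at was thus 22.2 times that of 1614621_at at 6 h and 26.8 times at 12 h. Probe sets aimed at 1 mRNA can thus differ in this test. It cannot tell different courses of transcripts apart from unequal response of probes, which was not tested. The mean within-array difference of 1606750_at minus 1616575_at was 0.34 ± 0.38 (SD, log2 scale) at 6 h and −1.25 ± 0.14 at 12 h (exact permutation p = 0.025, adjusted p = 0.0268 over the 3 times). On 6 h replicate 2 the difference was negative (signals of 118.9 and 127.6). Of the 15 pairs, 5 missed the threshold under at least 1 other setting. With permutations within replicate numbers 4 did so (adjusted p between 0.0641 and 0.111), and on linear signals 2 did (1612804_at with 1606750_at and with 1614621_at, adjusted p = 0.122 and 0.479). The pair 1606750_at and 1616575_at missed it without 6 h replicate 1 or any 1 of the 12 h arrays (adjusted p between 0.0571 and 0.0714), and 1609697_at and 1612804_at without 6 h replicate 3 or 12 h replicate 2 (adjusted p = 0.0571 and 0.0536).

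Between 6 h and 12 h the 6 probe sets took different courses: 1616575_at rose again, 1610850_at rose slightly, 1609697_at fell slightly, and for the others no change passed the test. 1616575_at was the member called at 2-fold, being 3.64-fold higher at 12 h than at 6 h (log2 1.87 ± 0.27, 95% interval 2.40- to 5.52-fold, adjusted p = 9.34e-04 from limma), 1 of 6 members where 2.34% of all probe sets were called higher. No member was called lower at 2-fold, against 4.54% of all probe sets. At any fold, 2 members were higher at an adjusted p under 0.05, against 15.6% of all probe sets: 1616575_at and 1610850_at, which was 1.37-fold higher at 12 h (log2 0.46 ± 0.11, 1.16- to 1.63-fold, adjusted p = 0.0126 from limma). At any fold 1 member was lower, against 13.1% of all probe sets: 1609697_at, at 0.652 times its level at 6 h (log2 −0.62 ± 0.18, 0.489 to 0.869 times, adjusted p = 0.032 from limma). With 6 members, counts this small carry no more than the values of the 3 probe sets. With centring on the hybridization controls, 48.3% of all calls between 12 h and 6 h were higher, against 34.0% in the values given, and the directions of these 3 were the same.

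The small change of 1609697_at rested on the full set of UV-C arrays: leaving out any 1 of the 6 UV-C arrays gave log2 changes between −0.65 and −0.59 but an adjusted p between 0.0608 and 0.0906 in limma. For 1610850_at only leaving out 6 h replicate 1 had this effect (log2 0.39, adjusted p = 0.0525). The call of 1616575_at held without each of the 9 arrays (log2 1.74 to 2.11, highest adjusted p = 0.00543). For the remaining 3 members the 95% intervals of the change from 6 h to 12 h were 1.00- to 1.47-fold for 1606750_at (adjusted p = 0.128), 0.945- to 1.36-fold for 1614621_at (adjusted p = 0.294) and 0.855- to 1.26-fold for 1612804_at (adjusted p = 0.789, all from limma), so a further doubling between the 2 times lay outside each interval.

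**Figure D3:**
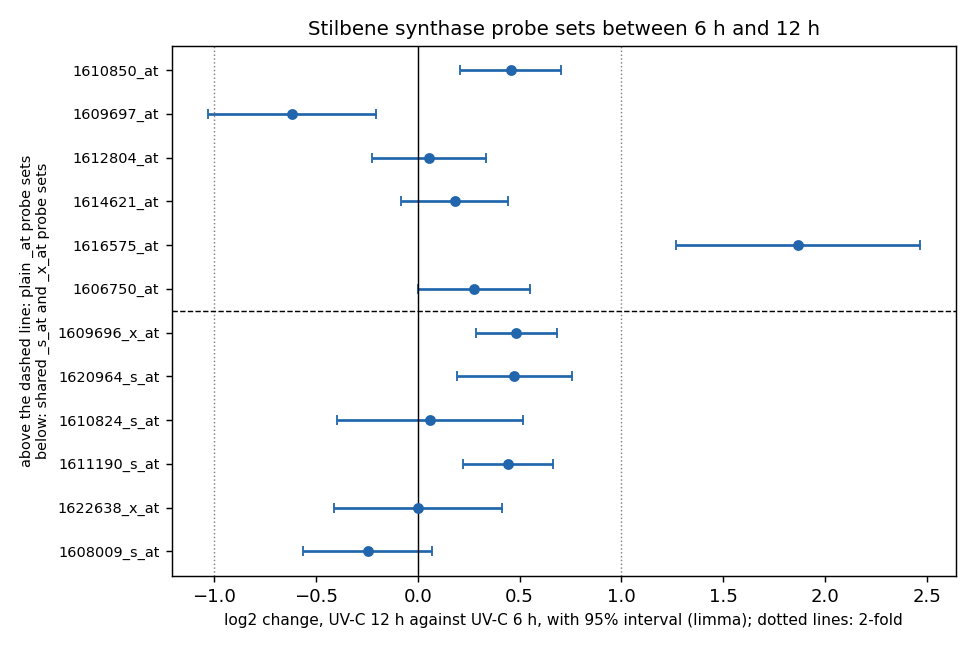
Log2 change from 6 h to 12 h (x axis, UV-C 12 h against UV-C 6 h, with the 95% interval of limma) of the 6 plain _at probe sets above the dashed line and the 6 shared probe sets below it. Dotted lines mark 2-fold. 1616575_at stands at 1.87, beyond the 2-fold line, and 1609697_at at −0.62, while the shared probe sets run from −0.25 to 0.48.

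3 of the shared probe sets have the target of a member, and their values between 6 h and 12 h were close to those of 1610850_at and 1612804_at. 1609696_x_at and 1620964_s_at, with the target of 1610850_at, were 1.40- and 1.39-fold higher at 12 h than at 6 h (adjusted p = 0.0033 and 0.0193 from limma), next to 1.37-fold for 1610850_at. 1614621_at has this target too and was 1.13-fold higher, which passed no test (adjusted p = 0.294). 1622638_x_at, with the target of 1612804_at, was at 1.00 times its level at 6 h (adjusted p = 0.996), next to 1.04 times for 1612804_at. None of the 6 shared probe sets was called between 12 h and 6 h at 2-fold.

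The probe sets outside the family with the most similar course were found by the Pearson correlation of log2 signals over the 9 arrays among the 10458 probe sets outside the family that the deposited comparison tables list. These correlations describe 9 arrays in 3 groups, and a probe set whose step between the control and the UV-C arrays is large against its spread can score high. The size of the step does not enter the correlation. At 6 h the probe sets named below rose from 1.65-fold (LOC100254009) to 274.7-fold (LOC100255664). The 3 probe sets nearest to each member had r between 0.9968 and 0.9995. 1 of the 3 nearest to 1614621_at was a probe set of MYB14 (r = 0.9990), an R2R3 MYB factor known in grapevine to activate stilbene synthase promoters. It rose 71.5-fold at 6 h and 91.7-fold at 12 h. The other two were LOC100253787, whose deposited title names no protein, and LOC100241487, similar to a putative A. thaliana beta-glucosidase. The nearest to 1616575_at were both probe sets of LOC100257315, similar to an Arabidopsis thaliana phi-1-like protein (r = 0.9992 and 0.9968, with 14.3- and 18.4-fold at 12 h), and one similar to a thylakoid-bound ascorbate peroxidase (LOC100254009, r = 0.9974). Nearest to 1610850_at were LOC100265131, LOC100257224 and LOC100246875, to 1609697_at LOC100241980, LOC100264074 and LOC100262346, and to 1606750_at LOC100247294, LOC100267863 and LOC100258632, all with deposited gene titles that name no protein. The study itself lists the probe set of LOC100264074 as an ethylene responsive element binding factor and that of LOC100267863 as a ferulic acid 5-hydroxylase. Nearest to 1612804_at were an untitled probe set, LOC100255664 and LOC100261805, similar to a leucine-rich repeat protein. Beyond r = 0.99 there were 12 probe sets for 1616575_at and 184 to 264 for each of the other 5 members.

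Around stilbene synthase, 13 of 17 listed probe sets of the shikimate pathway and phenylalanine synthesis were called higher and 2 lower, those of the phenylpropanoid entry moved both ways, and the 3 that the annotation names chalcone synthase fell. Lists were drawn by words in the deposited annotation, which covers the 10471 probe sets of the comparison tables. These had brighter signals than the 5965 left out (median of 341 against 12.0), and more of them were called: 17.8% higher and 21.1% lower at 6 h, and 21.6% higher and 25.1% lower at 12 h, which are the shares to read the counts of the lists against. The lists hold only the probe sets whose deposited annotation names the protein, so they do not cover all probe sets of an enzyme or family. Of all probe sets tested, 14.7% were called lower at 6 h and 17.5% at 12 h, and the median log2 change over all probe sets was −0.03 at 6 h and 0.05 at 12 h. Of 18 probe sets of precursor supply, the shikimate pathway with phenylalanine synthesis and acetyl-CoA carboxylase, which makes malonyl-CoA, 13 were called higher and 2 lower at each time, with a median log2 change of 2.64 at 6 h and 2.80 at 12 h. The highest at 6 h were a DAHP synthase (LOC100258475), the first enzyme of the shikimate pathway, at 4.23 ± 0.36, and a putative chorismate mutase/prephenate dehydratase (LOC100267022) at 3.79 ± 0.25. The lowest were 2 probe sets of a putative shikimate kinase (LOC100266919), at −1.36 ± 0.25 and −1.26 ± 0.11, which the study lists as shikimate kinase like 1. The probe set titled shikimate kinase rose 4.14-fold at 6 h and 3.71-fold at 12 h. The 1 acetyl-CoA carboxylase probe set, similar to a putative biotin-containing subunit, changed by −0.64 at 6 h and −0.97 at 12 h, under the 2-fold limit. Whether this subunit serves the malonyl-CoA that stilbene synthase uses was not tested.

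Of 10 probe sets of the phenylpropanoid entry (phenylalanine ammonia-lyase, cinnamate 4-hydroxylase and 4-coumarate CoA ligase, the steps to p-coumaroyl-CoA), 6 were called higher and 2 lower at 6 h, and 7 higher and 2 lower at 12 h, with a median log2 change of 2.18 at 6 h. Both probe sets of cinnamate 4-hydroxylase rose (LOC100253493, up to 3.42 ± 0.47 at 6 h), as did 3 of 5 listed under 4-coumarate CoA ligase. This list includes probe sets similar only to ligase-like proteins, and whether these make p-coumaroyl-CoA was not tested. Its highest, LOC100253117 (3.22 ± 0.23), is 1 of these ligase-like probe sets. In contrast, 2 of 3 probe sets of phenylalanine ammonia-lyase fell (LOC100233012, −1.95 ± 0.23, and LOC100241575, −1.83 ± 0.26). Of 19 probe sets of the flavonoid branch, 3 were called higher and 10 lower at 6 h and 4 higher and 10 lower at 12 h, with a median log2 change of −1.03 at 6 h. The 3 probe sets that the annotation names chalcone synthase, an enzyme that competes with stilbene synthase for its substrates, were called lower at both times, with log2 changes between −3.54 and −2.11 (6 h) and between −3.47 and −2.54 (12 h). Their standard errors were 0.47 to 0.60. The control arrays varied widely, in 1 of these probe sets from 530 to 4376. The lowest of the branch at 6 h were a flavonol synthase (LOC100232938, −3.82 ± 0.18) and a probe set shared by flavonoid 3′5′-hydroxylase genes (−3.82 ± 0.37), and the highest were probe sets similar to leucoanthocyanidin dioxygenase (LOC100264239, 6.24 ± 0.20) and to flavonoid 3-hydroxylase (LOC100263428, 3.82 ± 0.24).

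Of 6 probe sets annotated as MYB14 (2) or as WRKY factors (4), 5 were called higher and 1 lower at 6 h, and 4 higher and 1 lower at 12 h. Both probe sets of MYB14 rose, one with log2 changes of 7.69 ± 0.17 (6 h) and 7.73 (12 h) and the other with 6.16 ± 0.16 and 6.52. The lowest 2 of the 6 at 6 h were WRKY factors (LOC100256868, −1.07 ± 0.09, and LOC100264006, 1.33 ± 0.30). At 12 h LOC100256868 stood at −1.02 and LOC100264006 at −0.11. The study lists more WRKY probe sets than the 4 here, most of them raised.

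**Figure D4:**
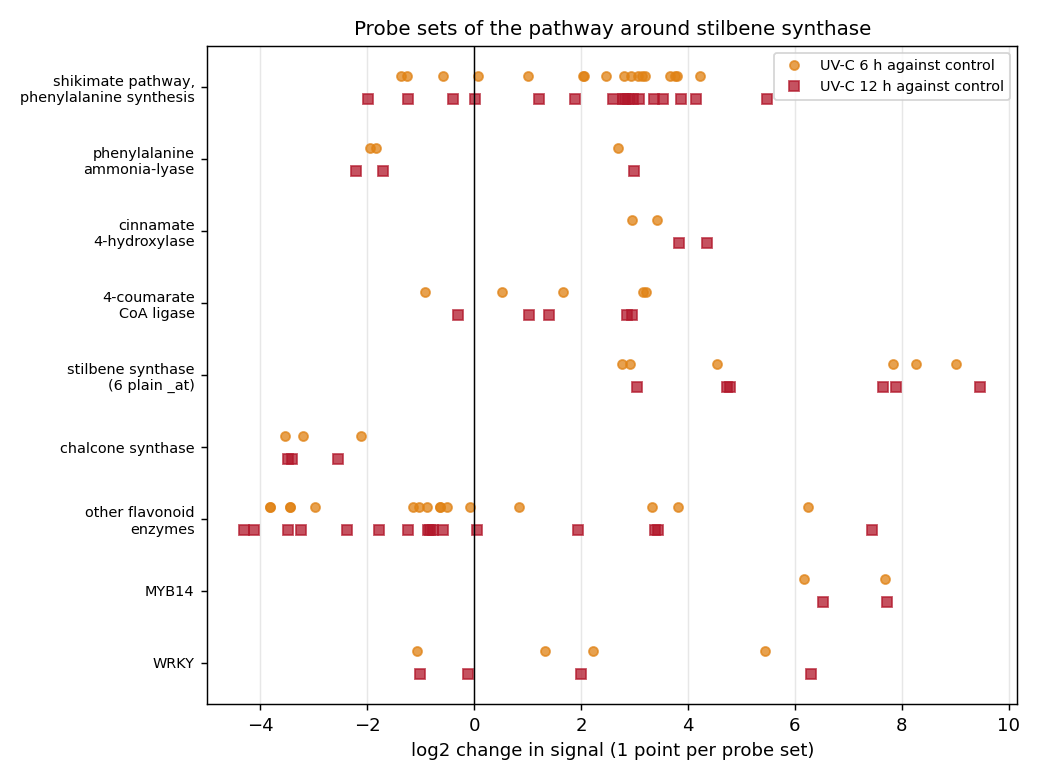
Log2 change in signal (x axis) of probe sets of the pathway around stilbene synthase, with 1 point per probe set and 1 row per enzyme or regulator. Circles give UV-C 6 h and squares UV-C 12 h against the control. The 6 stilbene synthase probe sets lie between 2.77 and 9.47, and the 3 annotated as chalcone synthase between −3.54 and −2.11.

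Across all 9 arrays the signals ran from 3.8 to 30874, and arrays of 1 group correlated at 0.988 or higher over all probe sets. The labelled tissue was checked with 18 probe sets of the rubisco small subunit and chlorophyll a/b-binding proteins, which are high in green leaf. All 18 had a control mean between 3689 and 20995. Of the 18, 9 were called lower at 6 h and 17 at 12 h, and none higher. Their summed signal lay between 108922 and 124225 at 6 h and between 46128 and 54727 at 12 h, against 185686 to 209681 in the control. Their part in the rise of the stilbene synthase probe sets was not tested. The 1 probe set similar to a seed storage protein, a vicilin, had signals of 251 to 279 at 6 h and of 198 to 201 at 12 h, against 132 to 170 in the control, and was called at neither time.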

How the data were processed

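RNA of 9 leaf samples was hybridized to 1 Affymetrix Grape Genome Array each. The authors adjusted the background and quantile-normalized the arrays by RMA (version not given in the sources used here), and the deposited values are 1 RMA intensity per probe set and array on a linear scale. The deposited comparison tables repeat these intensities for 9818 to 10390 probe sets (equal within 5e-05) and also hold SAM scores, q-values and fold changes of the authors, which were not used. The log2 of the intensity was modelled in R 4.3.3 by limma 3.58.1 (lmFit, eBayes) over 16436 probe sets (165 Affymetrix controls left out, no filter on low values), with the 3 groups in 1 model and 6 residual and 3.42 prior degrees of freedom. Benjamini-Hochberg adjustment covered all 16436 probe sets in each comparison (either UV-C time with the control, and 12 h with 6 h). Errors after ± are standard errors of this fit unless given as SD. Pairs of members were compared by an exact permutation test of the sum of squares between times (1680 arrangements of the arrays) in Python 3.11.15 with numpy 2.4.6 and pandas 2.3.3, figures were drawn with matplotlib 3.10.9, and the scripts were tested on simulated data. The number of arrays limits the precision, and the study calls the replicates biological.

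The members and lists were chosen with earlier results of these data known. Named beside the members are the other probe sets of the family as a group, the 3 probe sets outside the family nearest to each member, and from each list the 2 with the highest and the 2 with the lowest change at 6 h. The probe set titled shikimate kinase is given besides. The lists were planned on gene titles, but many titles name no protein, so for those the protein that the target resembles was searched as well, and transcript names for all. 1 planned list is not reported here. Gene titles and matches come from the deposited annotation. The alternatives were no fold threshold, a fit of only 2 groups, a trended and robust fit, leaving out the dimmest 25% of probe sets, centring on array medians or on 18 hybridization controls, a further quantile normalization, leaving out _s_at, _x_at and _a_at probe sets, a replicate block, and leaving out each array.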

Additional observations from a re-analysis of the deposited data

Results flagged for a closer look

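3 probe sets changed differently by 6 h and by 12 h after UV-C, in the test of the difference itself (limma). 1616575_at was higher at 12 h than at 6 h by 1.87 on the log2 scale (adjusted p = 9.34e-04), with signals of 320.0 to 345.4 at 12 h, against 75.9 to 127.6 at 6 h. 1610850_at was higher at 12 h by 0.46 (adjusted p = 0.0126), with signals of 22198 to 23269 at 12 h, against 15192 to 17671 at 6 h. 1609697_at was lower at 12 h, with a log2 change of −0.62 (adjusted p = 0.032) and signals of 8534 to 9024 at 12 h, against 12929 to 14132 at 6 h. Groups of 3 arrays are too small for a search for single arrays that stand apart.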

How the results depend on the processing

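All 6 members were called higher at 6 h and at 12 h under each of the 18 alternatives, and between 12 h and 6 h the count was 1 under all of them except no fold threshold, which gave 3. Without the fold threshold, 8686 probe sets were called at 6 h, 9673 at 12 h and 4719 between 12 h and 6 h, against 4367, 5291 and 1130 with it. Leaving out each array gave 4238 to 4503, 5256 to 5309 and 1054 to 1214 calls over all probe sets. The change of 1612804_at between 12 h and 6 h, which passed no test, reversed to −0.036 on the log2 scale without 12 h replicate 3 (adjusted p = 0.878 from limma) and ran from −0.036 to 0.10 without each array. Of 15 pairs of members, 15 differed between times, 13 on linear signals divided by their own mean, 15 after further quantile normalization and 13 to 15 without each array. Over all probe sets, centring on array medians took the median log2 change to 0.11 at 6 h and to 0.19 at 12 h, and centring on the hybridization controls to −0.18 and 0.01, against −0.03 and 0.05, while the lowest change of a member against the control under these centrings was 2.625 (1606750_at, 6 h, hybridization controls). The labels do not say whether the replicate numbers pair the samples. Deviations of same-numbered arrays correlated between −0.162 and 0.138, and those of different-numbered arrays between −0.16 and 0.246. With 3 arrays per group these values cannot settle whether samples were paired. With a replicate block the members called were again 6, 6 and 1, and 4358, 5285 and 1118 of all probe sets were called. With permutations within replicate numbers 11 of 15 pairs differed. Array signals near the lower quartile limit what can be said of the members in control leaves.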
